A study of Mus musculus with 12 samples.

Results

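The expression of 9 genes of ER-associated degradation was followed across the study: Herpud1, Sel1l, Syvn1, Derl1, Derl2, Selenos, Edem1 and the J-domain co-chaperones Dnajb9 and Dnajc3. They were taken by name, as every probe set whose platform annotation gave one of these symbols and no other, which gave 9 of the 12335 genes and 24 of the 22516 probe sets on the arrays. All 24 probe sets passed the filter on dim probe sets. The arrays were Affymetrix mouse arrays, hybridised with RNA from the whole pancreas, 1 array per pancreas and 12 in all. There were 3 pancreata in each of 4 groups, named here by genotype and injection: wild type saline, wild type caerulein, Mist1KO saline and Mist1KO caerulein. All were males of 2 to 4 months that had hourly injections over 4 hours and were then killed. Wild type mice were C57BL6. The sources used here do not give the strain of the Mist1KO mice, the design of the Mist1 allele, the cells in which Mist1 is lost or the dose of caerulein. Caerulein, an analogue of the gut hormone cholecystokinin, drives the acinar cells of the pancreas to secrete digestive enzymes and at repeated high doses causes acute pancreatitis. Mist1, encoded by Bhlha15, is a transcription factor of secretory cells such as acinar cells.

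Proteins that fail to fold in the endoplasmic reticulum (ER) are recognised, moved back across its membrane, tagged with ubiquitin and destroyed by the proteasome. This is ER-associated degradation. Lectins and mannosidases such as Edem1 pick out misfolded glycoproteins, J-domain proteins bring the chaperone BiP to unfolded chains, and a membrane complex built on the ubiquitin ligase Syvn1 (Hrd1) and its partner Sel1l moves them out. Acinar cells make very large amounts of secreted protein, and many genes of this pathway are known targets of the unfolded protein response, through its factors ATF6, XBP1 and ATF4.

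The targeted gene followed its labels. The Bhlha15 signal was 1601, 1619 and 1624.3 in wild type saline, and 776.8, 729.5 and 838.5 in wild type caerulein. In Mist1KO it was 89.9, 95.9 and 106.8 after saline and 42.6, 38.3 and 79.4 after caerulein. The arrays had nearly the same trimmed mean, 151.1 to 151.4, which leaves out the lowest and the highest 2% of values. Their medians ran from 70.6 to 90.15. The median change of all 15716 probe sets tested was -0.14 with caerulein in wild type and -0.13 in Mist1KO on the log2 scale. Other measures moved with the groups. The summed signal of 7 acinar enzyme and secreted protein genes, of 9 listed, lay at 141805 to 183685 after saline and 118816 to 162481 after caerulein in wild type, and 103387 to 122635 after saline and 58912 to 91060 after caerulein in Mist1KO. All 7 fell with caerulein in Mist1KO, by 0.61 to 0.71 on the log2 scale, and in wild type 0 passed limma's test, also at an unadjusted p under 0.05. The summed signal of 5 plasma and B cell genes, of 8 listed, lay at 550.7 to 1246 after saline and 241.6 to 341.3 after caerulein in wild type, and 373.1 to 764.9 after saline and 746 to 1494 after caerulein in Mist1KO. The 18 probe sets of added hybridisation control RNAs, which do not come from the mouse, changed on average by -0.27 with caerulein in wild type and by -0.97 in Mist1KO on the log2 scale. Of 3 duct genes tested, Krt19 rose with caerulein in both genotypes, by 1.89 in wild type and with an interaction of 1.62 (adjusted p = 0.0114), and was higher in Mist1KO after caerulein by 1.27. Another, Muc1, went the other way in wild type and fell, at -0.49. After saline 1 of the 3 was lower in Mist1KO. Of 5 fibroblast and stellate cell genes tested, Col1a2, Dcn and Lum fell in Mist1KO, by 0.62, 0.81 and 0.68. Of 5 islet genes tested, Iapp and Ins2 were lower in Mist1KO than in wild type after caerulein, at -0.45 and -0.58. In that comparison Gcg lay the other way, at 0.53, which did not pass. In wild type the myeloid genes Adgre1, Csf1r and Ngp fell, by 0.85, 0.68 and 0.81. The part of these measures in the results below was not tested, and in RNA from a whole organ fewer cells of a type and less RNA per cell cannot be told apart.

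Herpud1 encodes a membrane protein with a ubiquitin-like domain that gathers around the Syvn1 complex and is itself rapidly degraded. The gene lies at chr8:94386429-94395371 of GRCm38.p6, and its stress-induced transcription is a standard readout of the unfolded protein response. The signal of its brighter probe set was 3771, 2996 and 1927 in wild type saline and 7342, 8000.1 and 7074 in wild type caerulein. In Mist1KO it was 3630.2, 2593 and 2830 after saline and 814.5, 791.2 and 1118 after caerulein. Thus every wild type caerulein array was above every wild type saline array, every Mist1KO caerulein array was below every other array of the study, and the saline groups of both genotypes overlapped. The group means were 2898 ± 926 after saline and 7472 ± 477 after caerulein in wild type, and 3018 ± 544 after saline and 908 ± 182 after caerulein in Mist1KO (SD, n = 3).

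Each change is given as a log2 difference ± SE from a limma fit over all arrays (n = 3 pancreata per group), and a gene rose or fell where its adjusted p was under 0.05. Folds come from log2(signal + 18.7), so that dim genes change by more than their folds show. With caerulein, Herpud1 rose by 1.41 ± 0.21 in wild type, which is 2.66-fold (adjusted p = 0.000371), and it fell by 1.72 ± 0.21 in Mist1KO, which is 3.28-fold (adjusted p = 5.24e-05). After saline the difference between genotypes was 0.10 ± 0.21, which did not pass the test (adjusted p = 0.802). After caerulein Herpud1 was 8.17-fold lower in Mist1KO than in wild type, at -3.03 ± 0.21 (adjusted p = 7.56e-07). The interaction, which is the caerulein change in Mist1KO minus that in wild type, was -3.13 ± 0.30 (adjusted p = 0.000243). The other Herpud1 probe set gave the same calls. Its signal was 1263, 1294 and 879.7 after saline and 3900 to 5513 after caerulein in wild type, and 1152 to 1766 after saline and 365.9 to 543.6 after caerulein in Mist1KO. Its changes were 1.95 in wild type and -1.63 in Mist1KO, and the interaction was -3.57 (adjusted p = 5.78e-05).

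**Figure D1:**
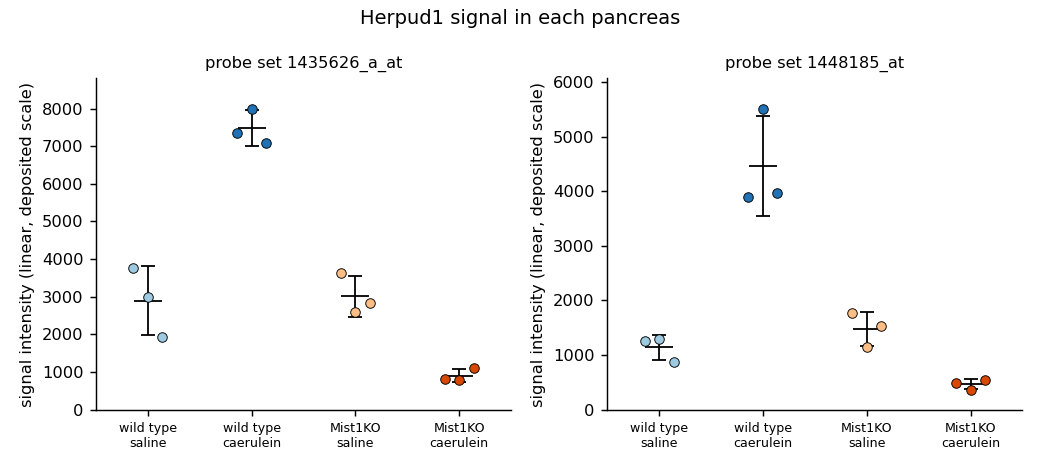
Signal of both Herpud1 probe sets on each of the 12 arrays, by genotype and injection, on a linear axis from 0; points are arrays and bars are the mean ± SD of 3 pancreata. In the brighter probe set the wild type caerulein arrays lie at 7074 to 8000.1 and the Mist1KO caerulein arrays at 791.2 to 1118.

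A rise in wild type with a fall in Mist1KO was a rare pair of calls. It was found for 9 of the 9477 genes tested, each read from its brightest probe set, which is 0.095%. The converse pair was found for 8 genes. Leaving out 1 array at a time gave 5 to 11 such genes, with 5 when wild type caerulein replicate 2 was left out, and Herpud1 was among them each time. Of these 9 genes Herpud1 had the most negative interaction. Among all 9477 genes its interaction ranked 3 from the most negative, and its difference between genotypes after caerulein ranked 10. These ranks describe a gene that was singled out with its values known.

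The promoter of Herpud1 holds the letters of an ER stress response element of the second kind (ERSE-II), and of the 8 members with a RefSeq promoter window Syvn1 and Dnajc3 hold those of the classical kind (ERSE). Derl1 had no window. Such elements are textbook binding sites of the stress factors ATF6 and XBP1. The windows, credited to RefSeq on GRCm38.p6, each span 250 bases before to 50 after a start in that table, and both strands were searched. There were 9 windows, since Derl2 has 2. The Edem1 window, at chr6:108828391-108828690, and 1 of the Derl2 windows, at chr11:71019254-71019553, lie inside the gene spans given below. The bases before the start are shown for Herpud1, Syvn1 and Dnajc3, the members with an exact match. All 3 genes lie on the plus strand, and capitals mark the match.
Herpud1, chr8:94386179-94386428: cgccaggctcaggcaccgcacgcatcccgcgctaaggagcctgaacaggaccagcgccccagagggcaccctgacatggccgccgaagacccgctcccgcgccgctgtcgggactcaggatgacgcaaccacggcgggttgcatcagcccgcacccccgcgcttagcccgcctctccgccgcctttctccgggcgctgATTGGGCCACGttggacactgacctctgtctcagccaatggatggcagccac
Syvn1, chr19:6046326-6046575: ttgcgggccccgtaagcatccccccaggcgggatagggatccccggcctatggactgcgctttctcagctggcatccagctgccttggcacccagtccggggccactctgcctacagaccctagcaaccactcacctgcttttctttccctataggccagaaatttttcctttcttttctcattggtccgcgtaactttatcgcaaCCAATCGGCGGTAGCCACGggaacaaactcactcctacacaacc
Dnajc3, chr14:118937682-118937931: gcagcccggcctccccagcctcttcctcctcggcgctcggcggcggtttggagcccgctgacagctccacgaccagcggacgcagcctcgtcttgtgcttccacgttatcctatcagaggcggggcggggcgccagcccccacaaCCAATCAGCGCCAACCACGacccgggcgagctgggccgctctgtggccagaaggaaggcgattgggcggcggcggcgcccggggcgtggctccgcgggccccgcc
In Herpud1 the second kind, ATTGG and CCACG with 1 free base between them, was matched at -52 to -42 from the start, and 12 of 32851 windows of this length hold it (0.0365%). The classical kind, CCAAT and CCACG with 9 free bases between them, was matched at -44 to -26 in Syvn1 and at -105 to -87 in Dnajc3, and 0.119% of all windows hold them. With any last base, this pattern was also matched in Herpud1, at -18 to 1, and on the minus strand in the Derl2 window that lies inside the gene, at -186 to -168, against 0.365% of all windows. Herpud1 further held TGATGNAA, the core of an ATF4 composite site, on the minus strand at -112 to -105, which 3.97% of windows hold. The ATF6 and XBP1 core GACGTGG, found in 2.42% of windows, and the E-box CATATG, a class of site that Mist1 binds, found in 3.92%, were in none of the members' windows. The E-box CAGCTG was matched in Syvn1 alone, at -185 to -180 and at -174 to -169, and 16.3% of windows hold it. A match of letters does not show that a factor binds there.

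Sel1l and Syvn1 form the core of the ligase complex: Sel1l is the membrane adaptor that takes in substrates and keeps Syvn1 stable, and Syvn1 attaches the ubiquitin. Sel1l lies at chr12:91806043-91849157 and Syvn1 at chr19:6046576-6053718. The brightest Sel1l probe set read 2800, 2519 and 2648 in wild type saline and 1444, 1676 and 1387 in wild type caerulein. In Mist1KO it read 4909, 4232 and 3980 after saline and 877.8, 924.3 and 1515 after caerulein. Mist1KO saline arrays were thus the highest of all, and caerulein arrays lay below the saline arrays of their genotype. Sel1l fell with caerulein by 0.82 ± 0.17 in wild type (adjusted p = 0.00471) and by 2.00 ± 0.17 in Mist1KO, a 4.01-fold fall (adjusted p = 2.41e-06). All 4 Sel1l probe sets fell in both genotypes, at -1.74 to -0.63 in wild type and -2.83 to -0.99 in Mist1KO.

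By its brightest probe set, Sel1l was the only member that differed between genotypes after saline, at 1.64-fold higher in Mist1KO (0.71 ± 0.17, adjusted p = 0.0177). It did not pass once wild type saline replicate 2 (adjusted p = 0.0597) or Mist1KO saline replicate 1 (adjusted p = 0.0744) was left out, and 2 of the 4 probe sets made it. After caerulein the genotype difference was -0.48 and did not pass (adjusted p = 0.0703), with overlapping groups. Mist1KO caerulein replicate 3, which also read highest of its group in all 4 Sel1l probe sets, bore on this: without it the difference was -0.72 (adjusted p = 0.00187). The interaction was -1.19 ± 0.25 (adjusted p = 0.0188), and it did not pass without Mist1KO saline replicate 1 or without Mist1KO caerulein replicates 1 or 2, where the adjusted p was 0.0513 to 0.0526. Of the 4 probe sets 2 passed for the interaction, and the others gave -1.08 (adjusted p = 0.345) and -0.32 (adjusted p = 0.65).

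Syvn1 read 718.4, 821.9 and 856.9 in wild type saline and 779.2, 1114 and 863.5 in wild type caerulein. In Mist1KO it read 935.5, 845.5 and 981 after saline and 976.7, 809.6 and 1160.4 after caerulein. All 4 groups overlapped, and no comparison passed the test: the changes with caerulein were 0.18 ± 0.15 in wild type and 0.08 ± 0.15 in Mist1KO (adjusted p = 0.429 and 0.759).

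Derl1, Derl2 and Selenos belong to the step that pulls substrates through the membrane. The derlins are rhomboid-like membrane proteins, and Selenos is a selenoprotein that ties them to the p97 ATPase. Derl1 lies at chr15:57869502-57892418, Derl2 at chr11:71007440-71019841 and Selenos at chr7:66079649-66089405. Selenos read 1844, 1860.4 and 1933 in wild type saline and 1338, 1757 and 1206 in wild type caerulein. In Mist1KO it read 1659, 1619 and 1671 after saline and 599.6, 644.6 and 827 after caerulein, so that the Mist1KO caerulein arrays were the lowest of all. Selenos fell 2.37-fold with caerulein in Mist1KO (-1.25 ± 0.14, adjusted p = 2.74e-05), and all 3 of its probe sets fell there. In wild type the change was -0.40 (adjusted p = 0.0667), with groups that did not overlap. This passed without wild type caerulein replicate 2 (adjusted p = 0.0156) and without Mist1KO caerulein replicate 3 (adjusted p = 0.0406), and under quantile normalisation, where it was -0.58 (adjusted p = 0.00859). After caerulein Selenos was 2.04-fold lower in Mist1KO than in wild type (-1.03 ± 0.14, adjusted p = 0.000251).

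The brightest Derl1 probe set read 661.7, 712.4 and 741.6 in wild type saline and 671.2, 696.8 and 554 in wild type caerulein. In Mist1KO it read 929.5, 784.8 and 879.9 after saline and 680.6, 691.2 and 835.6 after caerulein. The saline groups of the genotypes did not overlap, yet that difference of 0.29 ± 0.13 did not pass (adjusted p = 0.153), nor did any other comparison of this probe set. Of the 3 dimmer Derl1 probe sets 1 rose with caerulein in wild type (0.51, adjusted p = 0.0387) and was higher in Mist1KO saline than in wild type saline (0.67, adjusted p = 0.0155), and the others passed nowhere. The brighter Derl2 probe set read 150.5 to 162.4 after saline and 121.8 to 152.3 after caerulein in wild type, and 159 to 184.8 after saline and 101.6 to 165.6 after caerulein in Mist1KO. It passed no test, except with caerulein in Mist1KO once Mist1KO caerulein replicate 3 was left out (-0.57, adjusted p = 0.0261), while the dimmer one fell by 1.15 in wild type (adjusted p = 0.00333) and by 0.73 in Mist1KO (adjusted p = 0.0353). The probe sets of each derlin thus differed in their calls.

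Edem1, at chr6:108824045-108859356, is the lectin-like mannosidase relative that removes misfolded glycoproteins from the folding cycle. Its brighter probe set read 2413, 2132 and 1978 in wild type saline, 1897, 2697 and 2708 in wild type caerulein and 2273, 2371 and 2472 in Mist1KO saline. The Mist1KO caerulein arrays, at 1363, 1441 and 1576, lay below all of these. Edem1 fell by 0.69 ± 0.14 with caerulein in Mist1KO (adjusted p = 0.00233) and was lower in Mist1KO than in wild type after caerulein, at -0.71 ± 0.14 (adjusted p = 0.00261). In wild type its change was 0.15 (adjusted p = 0.49). The dimmer Edem1 probe set differed on that point, since it fell in wild type too, by 1.07 ± 0.13 (adjusted p = 8.21e-05), beside a fall of 1.81 ± 0.13 in Mist1KO.

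The J-domain proteins Dnajb9 (ERdj4) and Dnajc3 (p58IPK) reside in the ER lumen and pass unfolded chains to BiP. Dnajb9 also restrains the stress sensor IRE1, and Dnajc3 was first known as an inhibitor of eIF2alpha kinases. Dnajb9 lies at chr12:44205897-44210068 and Dnajc3 at chr14:118937932-118981702. Dnajb9 read 960.2, 646.9 and 1215 after saline and 893.1, 1203 and 1071 after caerulein in wild type, and 943.6, 865.1 and 1033 after saline and 1396, 1048 and 1494 after caerulein in Mist1KO. The Mist1KO groups did not overlap, and caerulein arrays were the higher, but this change of 0.45 ± 0.20 did not pass (adjusted p = 0.126; 0.047 with the Mist1KO arrays fitted alone), nor did any other comparison of Dnajb9.

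The brightest Dnajc3 probe set read 1213, 1191 and 966.1 after saline and 991.9, 1073 and 1150 after caerulein in wild type, and 847.1, 992.9 and 1022 after saline and 525.1, 550.9 and 550.3 after caerulein in Mist1KO. Only the Mist1KO caerulein arrays stood apart from the other groups. Dnajc3 fell by 0.79 ± 0.12 with caerulein in Mist1KO (adjusted p = 0.000267), against -0.06 in wild type (adjusted p = 0.754), and after caerulein it was lower in Mist1KO than in wild type, at -0.96 ± 0.12 (adjusted p = 0.000101). The 4 dimmer Dnajc3 probe sets gave another picture. Each fell in both genotypes, at -2.00 to -0.78 in wild type and -1.72 to -1.01 in Mist1KO, and none passed for the genotype after caerulein or for the interaction. With the mean of all 5 probe sets Dnajc3 fell by 1.09 in wild type (adjusted p = 0.00058), and the genotype difference after caerulein was -0.01 (adjusted p = 0.985). The genotype difference of Dnajc3 therefore rests on 1 probe set.

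**Figure D2:**
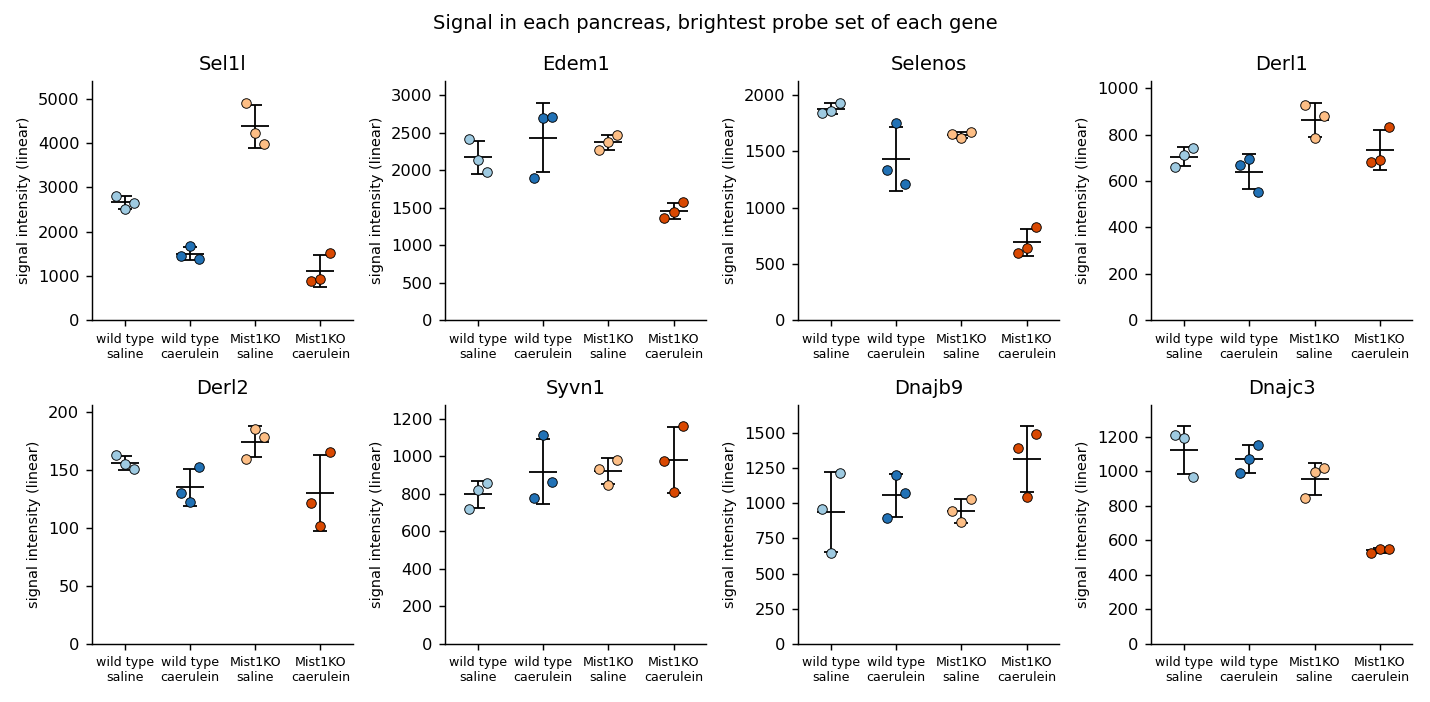
Signal of the brightest probe set of each member other than Herpud1 on the 12 arrays, on linear axes from 0. Points are arrays and bars are the mean ± SD of 3 pancreata per group. The Mist1KO caerulein arrays lie lowest for Edem1, Selenos and Dnajc3, while the groups of Syvn1 overlap.

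**Figure D3:**
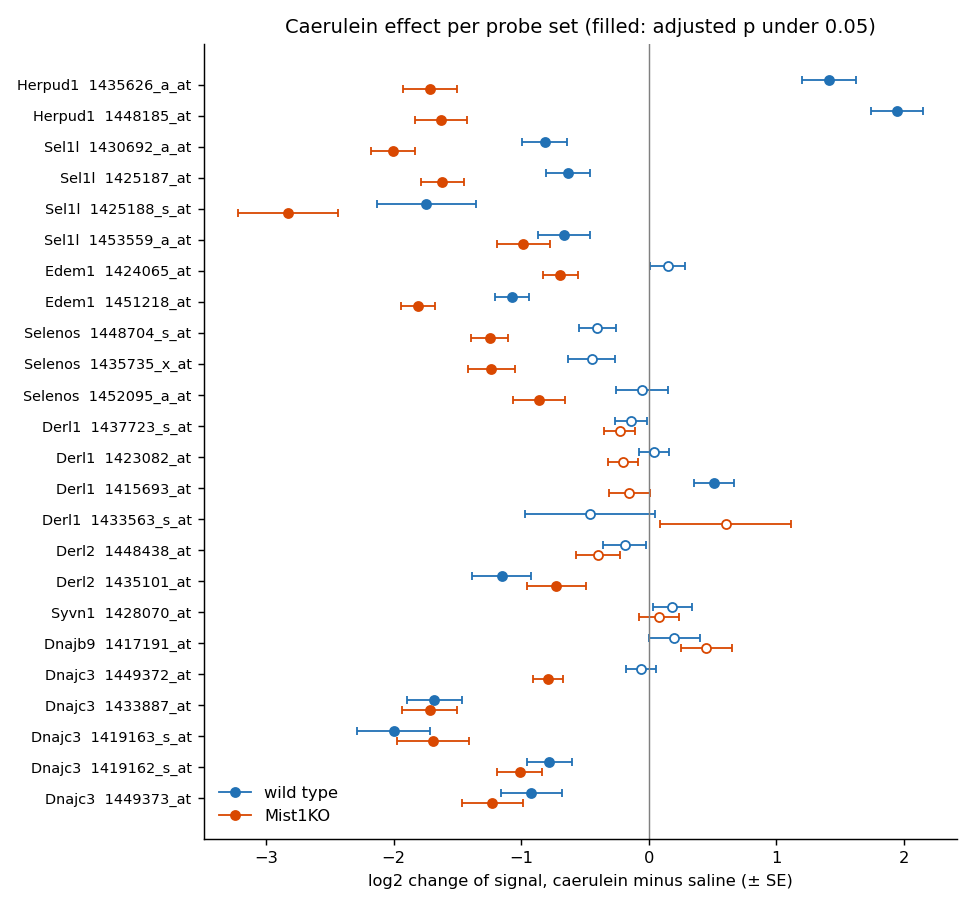
Change with caerulein (log2 difference ± SE) in wild type and in Mist1KO for all 24 probe sets of the 9 genes; filled symbols have an adjusted p under 0.05. Both Herpud1 probe sets lie above 0 in wild type and below 0 in Mist1KO, and 17 probe sets fell in Mist1KO.

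Counted over the 9 genes by their brightest probe set, caerulein in wild type raised 1 (Herpud1) and lowered 1 (Sel1l), against 8.84% and 9.97% of all 9477 genes, with 18.8% called in either direction. The median change of the 9 was -0.06, against -0.16 for all genes. In Mist1KO, caerulein lowered 5 of the 9 (Herpud1, Sel1l, Edem1, Selenos and Dnajc3) and raised none, where 14% of all genes fell and 10.3% rose, 24.4% in all. Their median change was -0.69, against -0.14 for all genes. In the same comparison the 7 acinar genes lay at -0.71 to -0.61 and the hybridisation controls at -0.97 on average, beside -0.69 for Edem1, -0.79 for Dnajc3 and -1.25 to -2.00 for Selenos, Herpud1 and Sel1l. At an unadjusted p under 0.05, limma's test gave 6 lower and 1 higher in Mist1KO. The adjusted count of 5 was 5 or 6 without any single array. Of the 24 probe sets, 3 rose and 10 fell in wild type, against 9.19% and 9.74% of all probe sets, and none rose and 17 fell in Mist1KO, against 10.5% and 13.4%. These are repeated readings of the same genes, and the 17 include all 5 probe sets of Dnajc3 and all 4 of Sel1l. Groups that did not overlap were common on the arrays. With caerulein they were seen for 3 of the 9 genes in wild type, against 33.9% of all genes, and for 6 of the 9 in Mist1KO, against 43.2%. Between genotypes they were seen for 3 of the 9 after saline, against 34.1%, and for 4 of the 9 after caerulein, against 38.5%.

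Between genotypes, 1 of the 9 genes (Sel1l) was higher in Mist1KO after saline, against 6.19% of all genes, and none lower, against 6.96%. In either direction 13.2% of all genes were called after saline, 20.8% after caerulein and 3.34% for the interaction. After caerulein 4 were lower in Mist1KO (Herpud1, Edem1, Selenos and Dnajc3) and none higher, against 11.7% and 9.1% of all genes. At an unadjusted p under 0.05, 5 were lower and 0 higher. The median difference after caerulein was -0.48 for the 9 genes and -0.09 for all genes. In the same comparison the 7 acinar genes lay at -0.99 to -0.84 and the hybridisation controls at -1.17 on average, beside -0.71 for Edem1, -0.96 for Dnajc3, -1.03 for Selenos and -3.03 for Herpud1. The interaction was negative and past the threshold for 5 of the 9 (Herpud1, Sel1l, Edem1, Selenos and Dnajc3), against 1.87% of all genes, and positive for none, against 1.48%, also at an unadjusted p under 0.05. For the 7 acinar genes the interaction lay at -0.55 to -0.27, with 0 past the adjusted test. The hybridisation controls changed on average by -0.27 with caerulein in wild type and by -0.97 in Mist1KO. The part of these shifts in the members' interactions was not tested. With each array centred on its median, 10.8% of all genes rose and 5.44% fell with caerulein in wild type, 12.4% and 9.18% did in Mist1KO, and 11.1% were higher and 8.77% lower in Mist1KO after caerulein (8.26% and 4.35% after saline). The counts over the 9 genes were the same with that centring.

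Apart from Herpud1 and Sel1l these interactions were small and close to the threshold. They were -0.84 for Edem1 (adjusted p = 0.033), -0.84 for Selenos (adjusted p = 0.0393) and -0.73 for Dnajc3 (adjusted p = 0.0322). The call of Edem1 ended without each array but wild type saline replicate 1, wild type caerulein replicate 1 and Mist1KO caerulein replicate 3, with adjusted p up to 0.0894. That of Selenos, made by 1 of its 3 probe sets, ended without each but wild type caerulein replicates 1 and 3 and Mist1KO caerulein replicate 3, with adjusted p up to 0.105. That of Dnajc3 held without wild type saline replicates 1 or 2, wild type caerulein replicate 1, Mist1KO saline replicate 1 or Mist1KO caerulein replicate 3, and ended without each other array, with adjusted p up to 0.0926. Leaving out Mist1KO caerulein replicate 1 or 2 left 1 member, Herpud1, and the other arrays left 2 to 5.

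**Figure D4:**
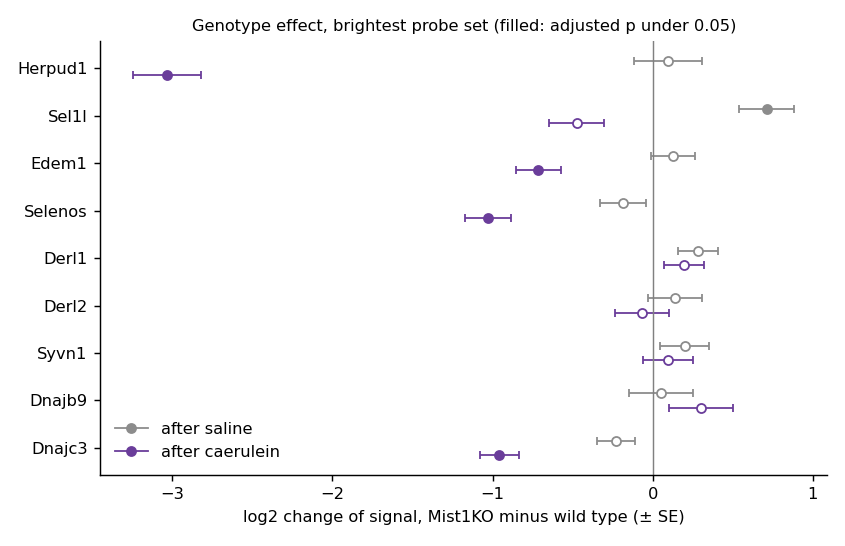
Difference between genotypes (Mist1KO minus wild type, log2 ± SE) after saline and after caerulein for the brightest probe set of each of the 9 genes; filled symbols have an adjusted p under 0.05. Herpud1 lies at 0.10 after saline and -3.03 after caerulein, and Sel1l at 0.71 and -0.48.

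The rest of the pathway was read from 5 lists of 66 genes, of which 56 were matched and tested. Among 7 lectins and glycan-processing enzymes, caerulein lowered 5 in Mist1KO, where 14% of all genes fell: Os9 (-1.02) and Erlec1 (-0.75), which deliver glycoproteins to Sel1l, the mannosidase relatives Edem2 (-0.85) and Edem3 (-0.39), and Uggt1 (-1.51), the folding sensor. In wild type, where 8.84% of all genes rose and 9.97% fell, 1 rose, the deglycosylating enzyme Ngly1 (0.63), and 1 fell, Os9 (-0.46), which did not pass when any of wild type saline replicates 1 and 2 and wild type caerulein replicates 1 and 3 was left out. After caerulein 5 of the 7 were lower in Mist1KO than in wild type, against 11.7% of all genes, Os9 (-1.23), Edem2 (-1.0), Ngly1 (-0.94), Uggt1 (-0.88) and Edem3 (-0.58), and this count was 5 without any single array. Edem2 read 2768, 2854 and 2559 after saline and 2484, 3044 and 2863 after caerulein in wild type, and 2393, 2280.2 and 2882 after saline and 1396, 1374 and 1382 after caerulein in Mist1KO. As for the Edem1 probe set that is brightest, only the last group was low, and the Edem2 interaction was -0.88 ± 0.16 (adjusted p = 0.0115). Median changes of the list were -0.19 in wild type and -0.75 in Mist1KO. Uggt1 was dim in Mist1KO caerulein, at 22.9, 38.9 and 56.9.

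Among 18 other membrane ligases and their partners, 2 rose and 3 fell in wild type, against 8.84% and 9.97% of all genes, and 3 rose and 4 fell in Mist1KO, against 10.3% and 14%. Herpud2, the paralogue of Herpud1, rose in both genotypes, by 0.97 ± 0.19 in wild type (adjusted p = 0.00232) and by 0.66 ± 0.19 in Mist1KO (adjusted p = 0.0181). It read 336.3, 306.2 and 335.4 after saline and 652.5, 744.5 and 581.5 after caerulein in wild type, and 317.7, 265.8 and 377.1 after saline and 570.4, 643.5 and 368.3 after caerulein in Mist1KO. Unlike Herpud1, it was not lowered by caerulein in Mist1KO, although Mist1KO caerulein replicate 3 lay within the range of the saline arrays. Ube2g2, a ubiquitin-conjugating enzyme of this pathway, rose in wild type (1.21 ± 0.18, adjusted p = 0.000439), and the ligases Rnf185 and Rnf5 fell there, at -1.08 and -0.63. Derl3, the third derlin, fell in wild type (-0.40) and in Mist1KO (-0.57). In Mist1KO the conjugating enzyme Ube2j2 and the ligase Trim13 rose, by 0.82 and 1.11, and the ligases Marchf6 and Rnf5 and the derlin-binding Ubac2 fell, by 0.75, 0.57 and 0.86. Trim13 was dim in Mist1KO, at 13.6, 75 and 54.6 after saline and 151.1, 112.2 and 81.9 after caerulein. Without wild type caerulein replicate 1 the count lower in wild type was 6, and without Mist1KO caerulein replicates 1 or 2 the count higher in Mist1KO was 1, since neither Herpud2 nor Trim13 then passed. Herpud2 also did not pass in Mist1KO without Mist1KO saline replicate 2 (0.55, adjusted p = 0.0824), nor Trim13 without Mist1KO saline replicate 1. After caerulein 5 were lower in Mist1KO than in wild type (Derl3, Rnf5, Trim13, Ube2g2 and Ubxn4), against 11.7% of all genes, and 2 or 3 passed without wild type caerulein replicates 1 or 2 or any Mist1KO caerulein array. Ube2g2 kept this call in 4 of the 12 fits that left out 1 array, and lost it without any Mist1KO saline array. With the mean of its probe sets it was at -0.42 and did not pass (adjusted p = 0.222).

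Among 11 factors that extract substrates and carry them to the proteasome, 3 rose in wild type and 1 fell, against 8.84% and 9.97% of all genes, and 2 rose and 1 fell in Mist1KO, against 10.3% and 14%. Sqstm1, the ubiquitin-binding autophagy receptor, rose in both, by 1.04 ± 0.10 (adjusted p = 8.74e-06) and by 0.44 ± 0.10 (adjusted p = 0.00577), and was lower in Mist1KO after caerulein by 0.83. The shuttle factor Ubqln1 fell in both, by 0.42 and 0.85. Rad23b, another shuttle factor, rose in Mist1KO by 0.40 and was higher there than in wild type after caerulein (0.64), while the ubiquitin chain-extending ligase Ube4b was lower (-0.82). With the mean of a gene's probe sets 3 of these calls ended: Ubqln1 in wild type was at -0.10 (adjusted p = 0.544), Rad23b in Mist1KO at 0.33 (adjusted p = 0.113) and Ube4b after caerulein at -0.28 (adjusted p = 0.536). The Ubqln1 call in wild type held in 6 of 10 alternatives that kept all the arrays compared. In wild type the count was 2 higher and 0 lower without wild type saline replicate 3, and 1 higher and 0 lower without wild type caerulein replicate 3. Without wild type saline replicate 3 the count lower in Mist1KO was 2.

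Hspa5, which encodes BiP, the main ER chaperone and the partner of Dnajb9 and Dnajc3, rose with caerulein in both genotypes. It read 2776, 2870 and 2572 after saline and 7622, 9619 and 8419 after caerulein in wild type, and 3705, 3694 and 4004 after saline and 5250.0, 4774 and 4983 after caerulein in Mist1KO. No groups overlapped. In wild type the rise was 1.63 ± 0.11 (adjusted p = 5.18e-07), in Mist1KO it was 0.39 ± 0.11 (adjusted p = 0.0194), and the interaction was -1.24 ± 0.16 (adjusted p = 0.00155). The rise in Mist1KO did not pass without Mist1KO saline replicates 1 or 2 or Mist1KO caerulein replicate 1. Herpud1 and Hspa5 thus both rose in wild type, while in Mist1KO caerulein lowered Herpud1 and not Hspa5. Of the 10 genes in this list of J-domain proteins, BiP and its exchange factors, 3 fell in wild type (Dnajb11, Dnajc10 and Hyou1, by 0.85, 0.75 and 0.38) and 4 in Mist1KO (Dnajb11, Sdf2l1, Sil1 and Hyou1, by 1.46, 1.22, 0.69 and 0.57), against 9.97% and 14% of all genes. After caerulein 4 were lower in Mist1KO (Hspa5, Dnajb12, Dnajc1 and Sdf2l1) and 1 higher (Dnajc10), against 11.7% and 9.1% of all genes. That count was 2 lower without wild type caerulein replicate 2 or Mist1KO caerulein replicates 1 or 2, and Dnajc10 did not pass without wild type caerulein replicates 2 or 3 or Mist1KO caerulein replicates 2 or 3.

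Of 10 sensors and factors of the unfolded protein response, caerulein raised 6 in wild type and 2 in Mist1KO, against 8.84% and 10.3% of all genes, and lowered Atf6 in both, by 0.54 and 1.16. The genes that rose in wild type were Trib3 (3.22), Atf4 (2.24), Ppp1r15a (1.92), Ern1 (1.33), Ddit3 (0.92) and Eif2ak3 (0.72), which are the factors and feedback genes of the eIF2alpha kinase branch and the sensors IRE1 and PERK. Trib3 and Atf4 rose in Mist1KO too, by 1.43 and 1.66. Trib3 was dim in Mist1KO saline, at 55.4, 82.2 and 21.9. The Ern1 probe set was dim in wild type, at 16.7, 35.2 and 22.8 after saline and 61.9, 177.2 and 61.3 after caerulein. Its call ended without wild type saline replicates 1 or 3 or wild type caerulein replicate 2. With the mean of its probe sets Ern1 was at 0.57 in wild type and did not pass (adjusted p = 0.185). After caerulein 6 were lower in Mist1KO than in wild type, against 11.7% of all genes, among them Trib3 (-2.67), Ppp1r15a (-1.99), Ddit3 (-1.11) and Atf4 (-0.76). Without wild type caerulein replicate 2, 3 rose in wild type, and the 6 became 3 without wild type caerulein replicate 2 or Mist1KO caerulein replicate 1. Atf6 did not pass in wild type without wild type caerulein replicate 3. Ppp1r15a, which recruits the phosphatase that reverses the block on translation, read 176.6, 230.6 and 162.2 after saline and 562.3, 1069 and 733.3 after caerulein in wild type, and 296.8, 270.9 and 156.1 after saline and 201.4, 224.7 and 121.9 after caerulein in Mist1KO, with an interaction of -2.28 ± 0.39 (adjusted p = 0.00638).

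After saline, 3 of the 56 listed genes were higher in Mist1KO and 7 lower, which is 5.36% and 12.5%, against 6.19% and 6.96% of all genes. In this comparison the 7 acinar genes lay at -0.57 to -0.44, with 0 past the adjusted test and 7 lower at an unadjusted p under 0.05 by limma, and the hybridisation controls at -0.46 on average. Os9, Rnf5 and Trim13 were lower in Mist1KO, by 0.67, 0.55 and 1.51, and Hspa5 was higher by 0.47. Trim13 was dim in Mist1KO saline, at 13.6, 75 and 54.6. Rnf5 and Hspa5 each lost the call without 1 array, Mist1KO saline replicate 1 for Rnf5 and Mist1KO saline replicate 3 for Hspa5. Other calls after saline (Edem3, Derl3, Tmub1 and Creb3l2 lower, Dnajb11 and Bag6 higher) ended without 3 or more single arrays. Beyond Hspa5, Edem2 and Ppp1r15a, the interactions of Uggt1, Sqstm1 and Ube2g2 passed in the full data, at -1.22, -0.60 and -1.07, and each ended without 9 or more of the 12 arrays. With the mean of its probe sets the Ube2g2 interaction was -0.81 and did not pass (adjusted p = 0.215 by limma).

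**Figure D5:**
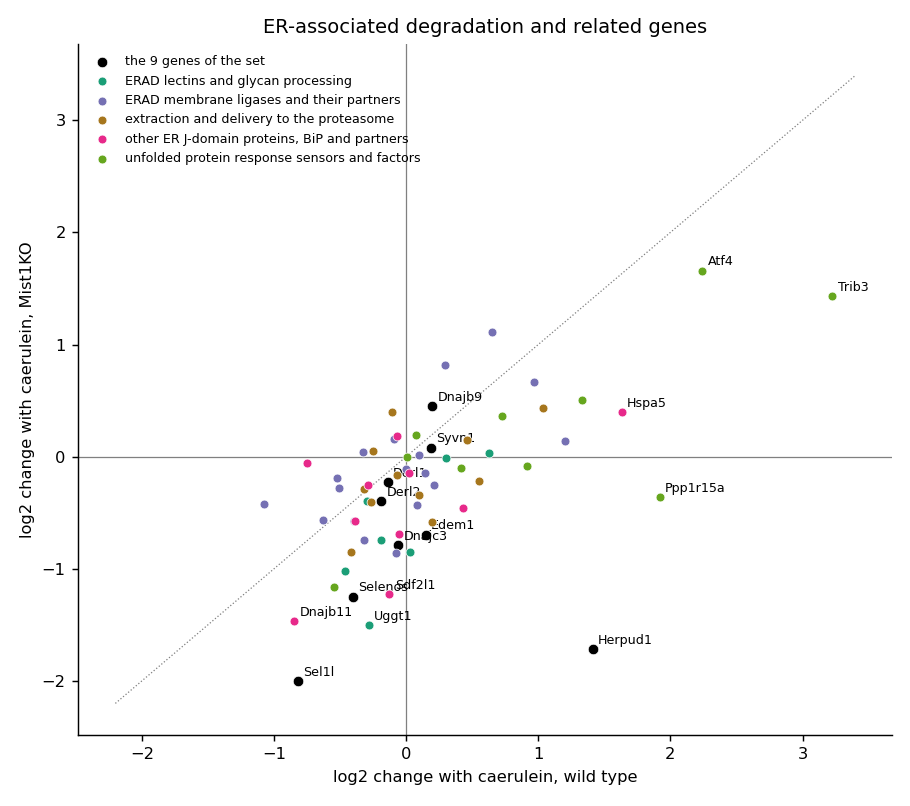
Change with caerulein in wild type (horizontal) against that in Mist1KO (vertical), log2, for the 9 genes and the 56 other pathway genes, each by its brightest probe set; the dotted line marks equal change. Herpud1 lies at 1.41 and -1.72, far from the line, and Hspa5 at 1.63 and 0.39.

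The genes whose profile over the 12 arrays was most like that of Herpud1 were found by the mean absolute difference of log2 signals, each centred on its own mean, over 9307 genes. The other Herpud1 probe set lay at 0.19. The nearest genes were Arrdc4 (0.48), an arrestin-domain protein, Slc35c2 (0.49), a Golgi sugar transporter relative, Pdk2 (0.50), a pyruvate dehydrogenase kinase, Gne (0.51), of sialic acid synthesis, Idh2 (0.51), the mitochondrial isocitrate dehydrogenase, and Gorasp1 (0.51), a Golgi stacking protein. All 6 were lower in Mist1KO than in wild type after caerulein, at -2.32 to -1.49. Of the 6, Arrdc4 rose in wild type (1.04, adjusted p = 0.00214), and Pdk2, Idh2 and Gne fell in Mist1KO (-1.59, -0.95 and -0.75). Because the 6 were chosen for likeness to Herpud1 on these same arrays, such changes follow in part from the choice and are no independent result. The other members lay farther away, at 0.67 for Dnajc3, 0.68 for Selenos and 0.71 for Edem1, and at 0.89 to 1.07 for Derl2, Syvn1, Derl1, Sel1l and Dnajb9.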

How the data were processed

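The authors deposited linear signal intensity values, with nearly equal trimmed means of the arrays (the lowest and highest 2% of values left out). The sources used here do not give the summarising software or any detection calls. Signal over background is therefore unknown. Genes were named from the platform annotation, and samples grouped by title. The 64 control probe sets and those at or below the 30th percentile of mean log2(value + 18.7) were left out, 18.7 being the 20th percentile of all values. The remaining 15716 were fitted with limma 3.58.1 in R 4.3.3 (a mean per group, eBayes with an intensity trend, 8 residual degrees of freedom), tested from both sides and adjusted by Benjamini-Hochberg over all of them, with a threshold of 0.05. A gene was read from its brightest probe set over all arrays. The fit was tested on simulated data. The number of arrays limits the precision. The design text calls the pancreata biological replicates.

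The members, lists and alternatives were chosen with earlier results of these data known. All members were named, then per list and comparison up to 4 genes past the threshold with the largest change, and the 6 genes most like Herpud1; further genes named from a list, and those given with array values, were chosen after their values were seen. Alternatives were other offsets and filters, quantile normalisation, median centring, the mean of a gene's probe sets, a replicate block, no intensity trend, the compared arrays alone and leaving out each array.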

Additional observations from a re-analysis of the deposited data

Results flagged for a closer look

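Caerulein changed 5 of the 9 genes differently in Mist1KO and wild type pancreas, by limma's test of the interaction adjusted over all probe sets, against 3.34% of all genes. For Herpud1 the interaction was -3.13 on the log2 scale, from a rise of 1.41 in wild type and a fall of 1.72 in Mist1KO, and it passed without any single array. For Sel1l it was -1.19, from falls of 0.82 and 2.00. For Edem1 it was -0.84, for Selenos -0.84 and for Dnajc3 -0.73. These last 3 passed in 3, 3 and 5 of the 12 fits that left out 1 array, and that of Sel1l in 9. The Dnajc3 call was made by 1 of 5 probe sets, and with their mean it was -0.20 (adjusted p = 0.753). The Selenos call was made by 1 of 3 probe sets, and the others were at -0.78 (adjusted p = 0.134) and -0.81 (adjusted p = 0.167). With the mean of probe sets Sel1l was at -0.89 (adjusted p = 0.163) and Selenos at -0.81 (adjusted p = 0.0716), and neither passed. The 7 acinar genes had interactions of -0.55 to -0.27, with 0 past the adjusted test. The hybridisation controls changed on average by -0.27 with caerulein in wild type and by -0.97 in Mist1KO. The part of these shifts in the 5 interactions was not tested.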

How the results depend on the processing

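All calls of Herpud1 kept their direction and side of the threshold under every alternative run, and its difference after saline, which did not pass, ranged from -0.17 to 0.31 when 1 array was left out. The count of the 9 genes past the threshold with caerulein in wild type was 5 with the mean of a gene's probe sets, against 2. For the genotype after saline it was 0 with that mean and 0 to 1 without 1 array, and the probe sets past the threshold there ranged from 1068 to 2058 (1068 to 1158 without wild type saline replicate 2 or Mist1KO saline replicates 1 or 3, against 1977 with all arrays). For the interaction, 5 members became 1 without the intensity trend, 2 with the mean of probe sets and 1 to 5 without 1 array; the probe sets past it numbered 518, 328 without the trend and 271 to 552 without 1 array (271 to 344 without wild type caerulein replicate 2, Mist1KO saline replicates 1 or 3, or Mist1KO caerulein replicates 1 or 2).

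Same-numbered arrays did not deviate together over all probe sets (0 of 18 pairs had a correlation over 0.1, the range being -0.10 to 0.05). This check cannot show whether same-numbered samples shared more than a number, since a link that touched few genes would not move it. With the replicate number as a block, the interaction passed for 2 members, and the counts of members in the 4 comparisons of groups were the same.

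Signs turned in 23 of 2623 gene values, none of a called value. With the mean of probe sets they were Edem1 (-0.46, adjusted p = 0.017, a fall) in wild type, Derl1 in Mist1KO (0.0032), Dnajc3 after saline (0.19), Derl2 after caerulein (0.24), and Derl1 (0.017) and Derl2 (0.11) for the interaction. With median centring they were Dnajc3 in wild type (0.068) and Derl2 after caerulein (0.017). With quantile normalisation they were Syvn1 in Mist1KO (-0.066), Dnajb9 after saline (-0.040) and Derl2 after caerulein (0.0014). Without 1 array, values that turned ranged from -0.042 to 0.40 for Dnajb9 in wild type, -0.046 to 0.21 for Syvn1 in Mist1KO, -0.19 to 0.26 for Dnajb9 after saline, -0.23 to 0.073 for Derl2 and -0.030 to 0.24 for Syvn1 after caerulein, and -0.23 to 0.038 for the Syvn1 interaction. The Herpud1 difference after saline, which was not called, turned as well, with a range of -0.17 to 0.31.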

Other observations

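The other 8 genes that rose with caerulein in wild type and fell in Mist1KO had smaller changes than Herpud1. Rora, a nuclear receptor of the circadian clock, rose by 0.79 and fell by 0.68 on the log2 scale, with an interaction of -1.47 (adjusted p = 0.00243 by limma). Ccnd2, which encodes cyclin D2, rose by 0.50 and fell by 0.89, with an interaction of -1.39 (adjusted p = 0.00395). Aqp8, a water channel, rose by 0.44 and fell by 0.56. The others were Arfgap1, Nup210, Lnx1, Fam110c and Ypel3, with interactions from -1.23 to -0.84. These genes were named after their values were seen, and the set held 5 to 11 genes without 1 array. None of the other 56 pathway genes was among them.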
